A study of Homo sapiens with 18 samples.

Results

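The HOX cluster genes are the 39 human genes whose symbols join HOX, a cluster letter A to D and a paralogue number. They were chosen by symbol alone, out of 63677 gene identifiers measured in 18 bulk RNA sequencing libraries of xenograft tumours, that is, tumours grown in mice from human cells. Cells of 3 human neuroblastoma lines were used, namely SKNAS, LAN-1 and KELLY. Each line had an arm named Hmx1 and an arm named Control, with 3 libraries per arm. From the labels it cannot be read if Hmx1 was increased or reduced, by which construct, in which host mice, or if replicate tumours grew in different animals. The p-values therefore rest on library-to-library spread, part of which may be technical.

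HOX genes encode homeodomain transcription factors that give cells along the head-to-tail axis their regional identity. In vertebrates they lie in 4 clusters, where low paralogue numbers are used from anterior levels onwards and high numbers only posteriorly. Neighbouring genes are switched on as blocks and are held silent elsewhere by Polycomb complexes, which deposit a repressive histone mark. Neuroblastoma arises from sympathetic precursors of the trunk neural crest, and a cell's HOX pattern is often kept as a trace of its axial origin.

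Levels are given as TPM, a share of all transcripts in a library corrected for gene length, so that levels of different genes can be set side by side within a library. In GRCh37 coordinates of the gene tables, HOXA spans chr7:27132612-27239725 and has 11 members. HOXB spans chr17:46605888-46806540 with 10 members, HOXC spans chr12:54332535-54449813 with 9, and HOXD spans chr2:176957619-177055688 with 9. A member was called expressed in a group when it reached 1 TPM in all 3 libraries. Only 14 members passed the filter for testing, which asked for 1 TPM in at least 3 of the 18 libraries. These were 6 HOXC genes (HOXC4, HOXC5, HOXC6, HOXC8, HOXC9 and HOXC10) and 8 HOXD genes (HOXD1, HOXD3, HOXD4, HOXD8, HOXD9, HOXD10, HOXD11 and HOXD13). Of the other 25, HOXB13 reached 1 TPM in 1 library and 24 never did. HOXB1 and HOXC12 were listed at 0 in all 18 libraries. Spans of 36 members overlap another gene, and those of 27 overlap a gene on the opposite strand. No source used here gives the use of strand in counting, so reads may have been split between such neighbours.

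Across the series, 14420 to 16441 genes reached 1 TPM per library, mitochondrial genes took 4.47% to 33.8% of TPM, and replicates of a group correlated at 0.981 to 0.994 on the log2 scale. HMX1 itself had 0.193 to 1.24 TPM in SKNAS Hmx1 tumours and was listed at 0 in all 3 SKNAS Control tumours. It had 11.5 to 16.5 TPM in LAN-1 Hmx1 and 11.1 to 11.9 TPM in LAN-1 Control tumours, and 4.68 to 6.40 TPM in KELLY Hmx1 and 3.92 to 7.72 TPM in KELLY Control tumours. The arms of LAN-1 and of KELLY thus overlapped for the gene that names the arm. The summed level of 9 noradrenergic markers of sympathetic neuroblasts, such as DBH, was 808 to 855 TPM in SKNAS Hmx1 and 906 to 1039 TPM in SKNAS Control tumours, 1641 to 1721 TPM in LAN-1 Hmx1 and 1997 to 2027 TPM in LAN-1 Control tumours, and 3535 to 3859 TPM in KELLY Hmx1 and 2532 to 4267 TPM in KELLY Control tumours. The sum was thus lower in Hmx1 with no overlap in SKNAS and in LAN-1, and overlapped in KELLY. Of the 9 markers, limma called TH lower (log2 difference -1.81, adjusted p = 2.90e-05) and DDC higher (0.91, adjusted p = 0.0388) in SKNAS Hmx1 and none in the other 2 lines, and no marker was at 0 in all libraries of a group. The part of these markers in the HOX differences was not tested.

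The 3 lines carried different HOX patterns, and each pattern was much the same in both arms. HOXA and HOXB were close to silent in every library. HOXD was on in all 3 lines, HOXC was on in SKNAS and KELLY but nearly absent from LAN-1, and the most posterior HOXD gene, HOXD13, was high in KELLY alone. Counted as expressed were 10 members in SKNAS Hmx1 and 9 in SKNAS Control tumours, 4 in each LAN-1 arm, and 11 in KELLY Hmx1 and 13 in KELLY Control tumours. The 4 LAN-1 genes were HOXD3, HOXD8, HOXD9 and HOXD10 in both arms. HOXD3, HOXD8 and HOXD9 were the members expressed in all 6 groups.

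The summed HOXC level was 41.1 ± 1.84 TPM in SKNAS Hmx1 and 34.2 ± 6.79 TPM in SKNAS Control tumours (SD, n = 3 each, as in all groups below). It was 0.775 ± 0.970 TPM in LAN-1 Hmx1 and 1.42 ± 0.862 TPM in LAN-1 Control tumours, and 82.5 ± 6.91 TPM in KELLY Hmx1 and 73.9 ± 13.4 TPM in KELLY Control tumours. All 6 KELLY libraries lay above all 6 SKNAS libraries, and all 6 LAN-1 libraries lay below both. For HOXD the order was different. Its sum was 107.2 ± 1.95 TPM in SKNAS Hmx1 and 123.5 ± 5.88 TPM in SKNAS Control tumours, 58.3 ± 4.53 TPM in LAN-1 Hmx1 and 58.2 ± 3.28 TPM in LAN-1 Control tumours, and 72.8 ± 8.17 TPM in KELLY Hmx1 and 67.4 ± 16.3 TPM in KELLY Control tumours. SKNAS libraries were the highest, and the LAN-1 and KELLY libraries overlapped in TPM as deposited. Mitochondrial genes took 12.9% to 33.8% of TPM in KELLY and 4.47% to 7.07% in LAN-1 libraries, which lowers other genes more in KELLY. That overlap may not hold without mitochondrial genes, and the ranges of single genes by line below carry the same limit. Within SKNAS the arms did not overlap for either sum, with HOXC higher and HOXD lower in Hmx1. For HOXC the gap was narrow, and 1 Control library lay lowest, at 26.4 TPM. Mitochondrial genes took 14.0% to 19.2% of TPM in SKNAS Hmx1 and 15.4% to 21.2% in SKNAS Control tumours. The sums were not rescaled without these genes, and the gap between the HOXC arms may not hold without them. The sums were not tested. From these sums, HOXD made up 94.7% to 99.4% of all HOX TPM in LAN-1 Hmx1 and 95.5% to 98.7% in LAN-1 Control tumours. It made up 44.8% to 49.5% in KELLY Hmx1 and 43.4% to 49.9% in KELLY Control tumours.

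**Figure D1:**
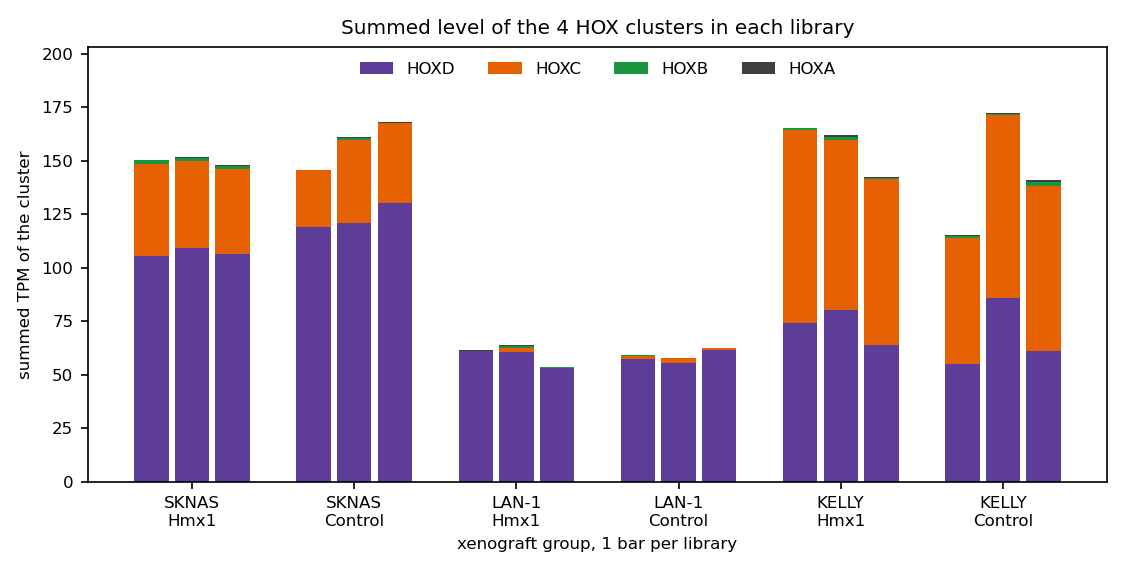
Stacked bars of the summed TPM of the 4 HOX clusters, 1 bar per library, in 6 groups with Hmx1 left of Control in each line. LAN-1 bars are almost wholly HOXD, KELLY bars split about evenly between HOXC and HOXD, and HOXA with HOXB are barely visible, at 0.116 to 2.79 TPM per library.

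HOXC4, a gene of neck-level identity, had the highest mean of the HOXC members in each group but LAN-1 Hmx1, where no HOXC member averaged above 0.280 TPM. It had 18.4, 16.6 and 16.0 TPM in SKNAS Hmx1 tumours, against 10.4, 19.0 and 20.4 TPM in SKNAS Control tumours. In LAN-1 it had 0.110, 0 and 0 TPM in Hmx1 tumours and 0.607, 1.69 and 0.0228 TPM in Control tumours, and in KELLY it had 40.8, 35.2 and 38.2 TPM in Hmx1 tumours and 29.3, 41.9 and 35.4 TPM in Control tumours. The arms overlapped in each line, in LAN-1 through 1 Control library at 0.0228 TPM. HOXC6, a trunk-level gene, ran from 9.66 to 12.7 TPM over the 6 SKNAS libraries, from 0 to 0.494 TPM in LAN-1 and from 5.13 to 12.5 TPM in KELLY, so that SKNAS and KELLY overlapped. HOXC9, which marks lower thoracic levels, ran from 2.88 to 4.28 TPM in SKNAS, from 0 to 0.351 TPM in LAN-1 and from 12.9 to 20.3 TPM in KELLY, with no overlap between the 3 lines. HOXC11, HOXC12 and HOXC13, the posterior end of the cluster, never passed 0.329 TPM. The span of HOXC4 covers all of HOXC5 and part of HOXC6, and that of HOXC6 covers HOXC8 and HOXC9, all on 1 strand, so the split of reads among these genes depends on the authors' counting.

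The RefSeq table of promoters, build GRCh38.p14, holds 250 bases before and 50 bases after each start, and lists 20 of the 39 members at 26 distinct starts. Promoters are shown for the genes on which the line pattern and the Hmx1 comparisons turn: HOXD13 for KELLY, HOXD8 as the leading SKNAS gene, HOXD3 for its opposite arms in SKNAS and LAN-1, and the start that the table gives to HOXC4 and HOXC5 in common. Capitals mark matches, on either strand, to TATAAA (the TATA box), CACGTG (the E-box bound by MYC and MYCN, its own reverse complement), CAAGTG (the core bound by HMX1) and TGATTNAT (a site of HOX with PBX).
HOXD13 (chr2:176092471-176092770, plus strand): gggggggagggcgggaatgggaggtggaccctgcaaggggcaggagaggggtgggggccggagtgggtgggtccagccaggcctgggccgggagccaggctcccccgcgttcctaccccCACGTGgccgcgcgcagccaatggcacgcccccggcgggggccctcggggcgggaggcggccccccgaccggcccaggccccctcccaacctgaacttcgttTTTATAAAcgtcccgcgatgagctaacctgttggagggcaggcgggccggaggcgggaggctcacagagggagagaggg
HOXD8 (chr2:176129455-176129754, plus strand): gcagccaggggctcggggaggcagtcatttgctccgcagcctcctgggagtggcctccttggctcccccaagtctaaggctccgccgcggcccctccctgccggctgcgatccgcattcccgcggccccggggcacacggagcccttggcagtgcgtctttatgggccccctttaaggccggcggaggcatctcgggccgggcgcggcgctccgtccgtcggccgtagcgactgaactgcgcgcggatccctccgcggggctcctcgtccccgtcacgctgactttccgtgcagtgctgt
HOXD3 (chr2:176157057-176157356, plus strand): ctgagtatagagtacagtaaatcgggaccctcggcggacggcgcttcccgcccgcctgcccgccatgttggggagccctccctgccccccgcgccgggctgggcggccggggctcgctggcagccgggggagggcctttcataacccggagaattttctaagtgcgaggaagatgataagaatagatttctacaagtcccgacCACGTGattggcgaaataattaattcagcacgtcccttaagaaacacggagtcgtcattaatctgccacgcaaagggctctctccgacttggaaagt
HOXC4 and HOXC5 (chr12:54016638-54016937, plus strand): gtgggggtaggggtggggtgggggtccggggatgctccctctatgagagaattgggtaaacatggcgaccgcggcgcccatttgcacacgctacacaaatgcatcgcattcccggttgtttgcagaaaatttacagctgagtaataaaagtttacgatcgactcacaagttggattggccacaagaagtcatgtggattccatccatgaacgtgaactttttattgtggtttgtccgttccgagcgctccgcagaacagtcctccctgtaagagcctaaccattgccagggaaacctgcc
HOXD13 holds an E-box and, just before its start, TATAAA on both strands in overlapping positions. HOXD3 holds an E-box, and the windows of HOXD8 and of HOXC4 with HOXC5 hold none of the 4 motifs. The HOXD3 window lies past that of HOXD4, which begins at 176151300. In the gene tables, HOXD3 begins before HOXD4, at 177001340 against 177015950 in GRCh37. The window shown is thus an inner start of the measured HOXD3 span. The measured spans of HOXC4 and HOXC5 begin apart, at 54410715 and 54426637 in GRCh37. Their common window thus cannot lie at the start of both, and it is not shown to be that of the HOXC5 RNA measured. Over the 26 starts of members, CACGTG was present in 9, against 7.26% of all 35116 promoters, TATAAA in 5, against 11.5%, TGATTNAT in 2, against 2.82%, and CAAGTG in 1, that of HOXA4, against 11.5%. The retinoic acid response element, a direct repeat known near several HOX genes, was in 0 of 26 and in 0.0057% of all promoters. CACGTG itself holds the letters CG, and all promoters were not matched to the members for CG. The median CG count was 14 over all promoters, and the windows of HOXD13 and HOXD3 held 24 and 25. Nothing is therefore read from the share with CACGTG. A match describes letters in the window and not a bound site.

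The HOXD members differed in their rank between lines. HOXD8, a mid-cluster gene, had 40.5, 45.0 and 49.2 TPM in SKNAS Hmx1 tumours, against 51.0, 56.2 and 45.5 TPM in SKNAS Control tumours. It ran from 11.7 to 14.6 TPM in LAN-1 Hmx1 and from 14.3 to 19.4 TPM in LAN-1 Control tumours, and from 6.55 to 11.8 TPM in KELLY Hmx1 and from 5.59 to 9.94 TPM in KELLY Control tumours. SKNAS lay apart from both other lines, and the highest KELLY library, at 11.8 TPM, reached just above the lowest of LAN-1, at 11.7 TPM. HOXD9, its neighbour, ran from 32.6 to 38.0 TPM in SKNAS, from 17.9 to 25.5 TPM in LAN-1 and from 11.5 to 18.3 TPM in KELLY, and the last 2 lines overlapped. HOXD4 ran from 6.23 to 13.1 TPM in SKNAS, from 0.408 to 2.07 TPM in LAN-1 and from 0.564 to 5.17 TPM in KELLY. HOXD10 was lowest in SKNAS, with 0.319 to 0.622 TPM in SKNAS, 2.41 to 3.90 TPM in LAN-1 and 1.08 to 2.93 TPM in KELLY.

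HOXD13, which patterns the distal limb and the genital bud, had 32.1, 31.6 and 26.0 TPM in KELLY Hmx1 tumours and 17.6, 44.1 and 27.1 TPM in KELLY Control tumours. Its range was 0 to 0.297 TPM in SKNAS and 0 to 0.322 TPM in LAN-1, so all 6 KELLY libraries stood above the other 12. It made up 41.1% ± 2.04 of HOXD TPM in KELLY Hmx1 and 42.5% ± 9.74 in KELLY Control tumours. Its neighbours on the posterior side of the cluster did not share that level. HOXD11 had 0.739 to 2.92 TPM in KELLY, 0 to 0.265 TPM in SKNAS and 0 in all LAN-1 libraries, and HOXD12 had at most 0.246 TPM in any library.

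**Figure D2:**
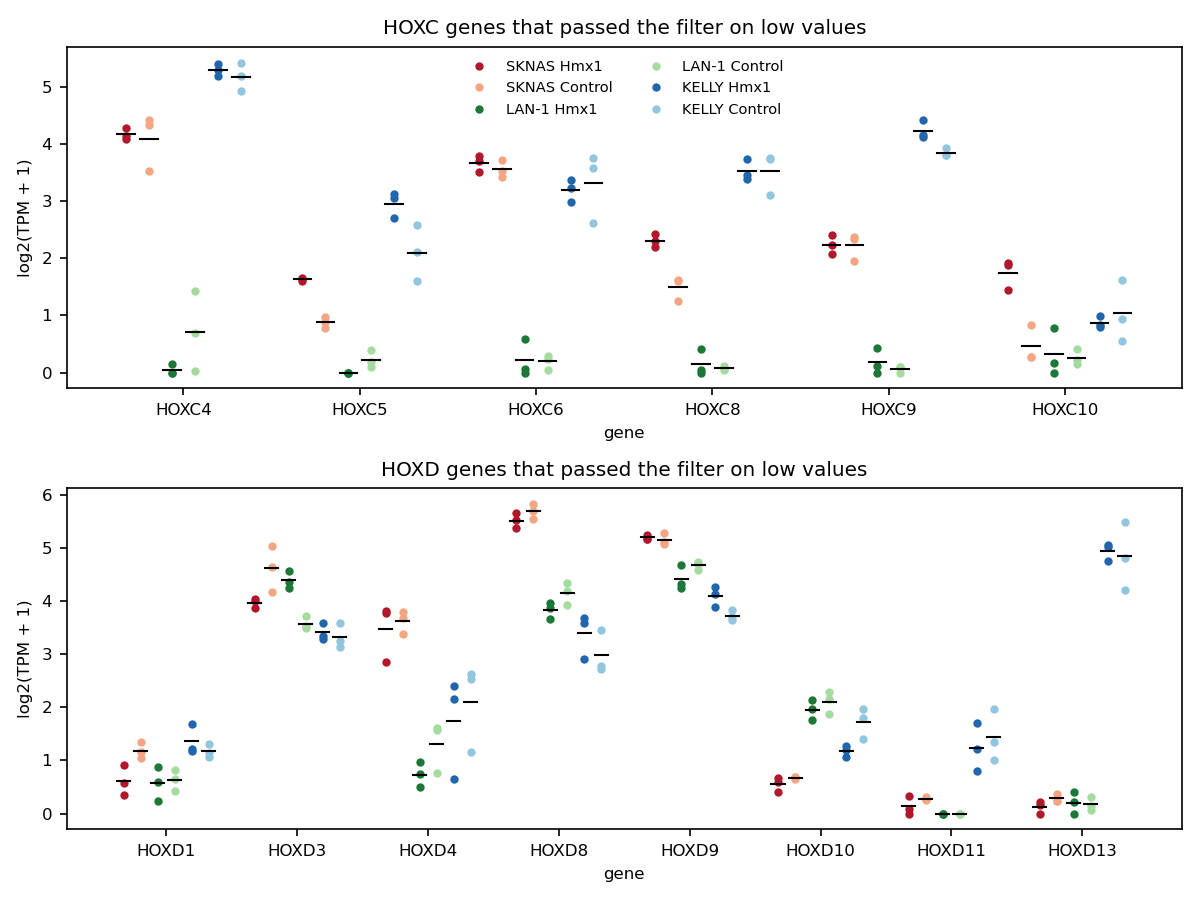
Level of the 14 members that passed the filter, as log2(TPM + 1), with 1 point per library, a bar at the group mean and Hmx1 left of Control in each line. HOXC4 to HOXC9 are lowest in LAN-1, HOXD8 is highest in SKNAS, and HOXD13 is above 4 in KELLY and below 0.5 elsewhere.

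Lines were compared within each arm with limma on log2(TPM + 1), with p-values adjusted over all 18650 genes tested, and called at an adjusted p under 0.05. A member that is high in 1 line alone entered the test through that line and had to differ, so the counts are read only against the share of all genes called. SKNAS Control against LAN-1 Control gave 11 of 14 members called, against 52% of all genes. SKNAS Control against KELLY Control gave 11, against 65.7%, and LAN-1 Control against KELLY Control gave 11, against 51.8%. In the Hmx1 arms, which are other libraries, the counts were 10 for SKNAS against LAN-1, beside 53.1% of all genes, 13 for SKNAS against KELLY, beside 64.8%, and 10 for LAN-1 against KELLY, beside 49.9%. The direction was the same in both arms for 9, 11 and 8 members in these 3 pairs of lines, and no member was called in opposite directions. The share of all genes called alike in both arms was not computed, so nothing particular to HOX genes is read from these counts.

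Between SKNAS and LAN-1, the 8 members higher in SKNAS in both arms were HOXC4, HOXC5, HOXC6, HOXC8, HOXC9, HOXD4, HOXD8 and HOXD9, and HOXD10 was lower. In Control tumours the log2 differences were 3.37 (SE 0.28, adjusted p = 1.88e-08) for HOXC4, 3.36 (SE 0.25) for HOXC6, 2.30 (SE 0.44) for HOXD4, 2.16 (SE 0.17) for HOXC9 and 1.53 (SE 0.22) for HOXD8. In Hmx1 tumours they were 4.12 for HOXC4, 3.45 for HOXC6, 2.75 for HOXD4, 2.15 for HOXC8 and 2.06 for HOXC9. Between SKNAS and KELLY, the 7 members lower in SKNAS in both arms included HOXD13, at -4.82 in Hmx1 and -4.56 in Control tumours, and HOXC9, at -1.99 in Hmx1 and -1.62 in Control tumours. HOXC8 was -2.04 in Control and HOXC5 was -1.33 in Hmx1 tumours. HOXD3, HOXD4, HOXD8 and HOXD9 were higher in SKNAS than in KELLY in both arms, and HOXD8 differed by 2.12 in Hmx1 and 2.71 in Control tumours, with HOXD4 at 1.75 in Hmx1 and 1.51 in Control tumours.

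Between LAN-1 and KELLY, 8 members were lower in LAN-1 in both arms. The log2 differences were -5.24 in Hmx1 and -4.46 in Control tumours for HOXC4, -4.74 and -4.67 for HOXD13 in the same order of arms, -4.05 and -3.78 for HOXC9, -3.37 and -3.45 for HOXC8, and -2.98 and -3.12 for HOXC6. HOXC5, HOXD1 and HOXD11 were the other 3. The median of all genes was not at 0 in line comparisons, at 0.18 for SKNAS against LAN-1, 0.54 for SKNAS against KELLY and 0.34 for LAN-1 against KELLY in Control tumours, and other scalings moved it by up to -0.51. The only called member whose direction changed under the 4 scalings tried was HOXD3 in SKNAS Hmx1 against KELLY Hmx1, at 0.56 in the fit above and below 0 after quantile normalization. HOXD3 also lost that call with FPKM and with median-ratio scaling. Both median-ratio and quantile scaling took away the calls of HOXC10 in the same comparison, of HOXD4 in SKNAS Control against KELLY Control, and of HOXD1 and HOXD9 in SKNAS Control against LAN-1 Control.

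In the SKNAS xenografts, Hmx1 tumours had more RNA of 3 HOXC genes than Control tumours, and no tested member was called lower. The 3 are HOXC5, HOXC8 and HOXC10, of which HOXC8 and HOXC10 are used at thoracic and lumbar levels. They make 3 of 14 members called, against 8.76% of all genes, and 3 of 14 called higher, against 4.96%. HOXC10 reached 1 TPM in 4 libraries, the 3 of SKNAS Hmx1 and 1 of KELLY Control, so it passed the filter through the group where it is high, and nothing is read from a count that holds it. Without it, 2 of the other 13 were called. The median log2 difference was -0.05 over the 14 members and 0 over all genes. Libraries of the arms did not overlap for 6 of the 14 members, against 30.9% of all genes. Besides the 3 genes above, these were HOXD1, HOXD3 and HOXD13, all lower in Hmx1.

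HOXC10 had 2.75, 1.72 and 2.69 TPM in SKNAS Hmx1 tumours, against 0.206, 0.790 and 0.205 TPM in SKNAS Control tumours. The lowest Hmx1 library lay above the highest Control library. The log2 difference was 1.29 (SE 0.25, limma adjusted p = 0.00245), with an adjusted p of 0.00589 when every gene was tested with no filter. Its size depended on the scale, at 0.80 with FPKM and 2.48 with a pseudocount of 0.1 in place of 1. HOXC8 had 3.94, 4.34 and 3.57 TPM in SKNAS Hmx1 tumours, against 1.39, 2.07 and 2.02 TPM in SKNAS Control tumours. These arms did not overlap either, and the log2 difference was 0.81 (SE 0.19, limma adjusted p = 0.0109). It was 0.76 without replicate 2 of SKNAS Hmx1, with adjusted p = 0.0520, and 0.70 without replicate 1 of SKNAS Control, with adjusted p = 0.0678. With a pseudocount of 0.1 it was 1.09, with adjusted p = 0.163. HOXC5 had 2.13, 2.05 and 2.11 TPM in SKNAS Hmx1 tumours, against 0.967, 0.720 and 0.848 TPM in SKNAS Control tumours. The arms stood apart, with a log2 difference of 0.75 (SE 0.20, limma adjusted p = 0.0225). The call was lost on leaving out replicate 1, 2 or 3 of Hmx1 or replicate 2 or 3 of Control, with adjusted p from 0.0580 to 0.0841, and with quantile normalization, with a difference of 0.59 and adjusted p = 0.0623. The difference was 0.49 with FPKM and 1.23 with a pseudocount of 0.1.

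The other HOXC genes of SKNAS did not pass the test. Log2 differences were 0.08 (SE 0.28) for HOXC4, 0.11 (SE 0.25) for HOXC6 and 0.02 (SE 0.17) for HOXC9, and the arms of all 3 overlapped. Among HOXD genes, HOXD8 was at -0.18 (SE 0.22) and HOXD9 at 0.05 (SE 0.15). HOXD3, which lies towards the anterior end of its cluster, had 15.4, 13.6 and 15.1 TPM in SKNAS Hmx1 tumours, against 23.9, 17.1 and 31.7 TPM in SKNAS Control tumours. All Hmx1 libraries were below all Control libraries. Its log2 difference was -0.65 (SE 0.20, limma adjusted p = 0.0533), and it passed the threshold under each of the 4 other scalings, with adjusted p from 0.0166 to 0.0263, and from 0.00980 to 0.256 over all 15 alternatives. HOXD1, the most anterior HOXD gene, had 0.882, 0.487 and 0.273 TPM in SKNAS Hmx1 tumours, against 1.22, 1.55 and 1.08 TPM in SKNAS Control tumours. Its difference was -0.58 (SE 0.20, limma adjusted p = 0.0926).

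HOXB13, the isolated posterior gene of HOXB best known from prostate, was too low for the filter. It had 1.19, 0.875 and 0.722 TPM in SKNAS Hmx1 tumours, against 0.0767, 0.240 and 0.0759 TPM in SKNAS Control tumours, at most 0.0676 TPM in LAN-1 and 0 in all 6 KELLY libraries. The SKNAS arms did not overlap. When every gene was tested with no filter, its log2 difference in SKNAS was 0.77 (limma adjusted p = 7.09e-06). HOXB2 was the only other member added (0.25, adjusted p = 0.0403), with 0.143 to 0.414 TPM in Hmx1 and 0 to 0.0521 TPM in Control tumours. Both genes failed the filter, HOXB13 was picked after its values were seen, and the share of all genes called in that fit is not given. These adjusted p-values are therefore descriptive only. Among the HOXA and HOXB genes with the highest mean, HOXA5, HOXA7 and HOXA10 never passed 0.456 TPM, and HOXB7 and HOXB8 reached at most 0.948 TPM, in KELLY.

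**Figure D3:**
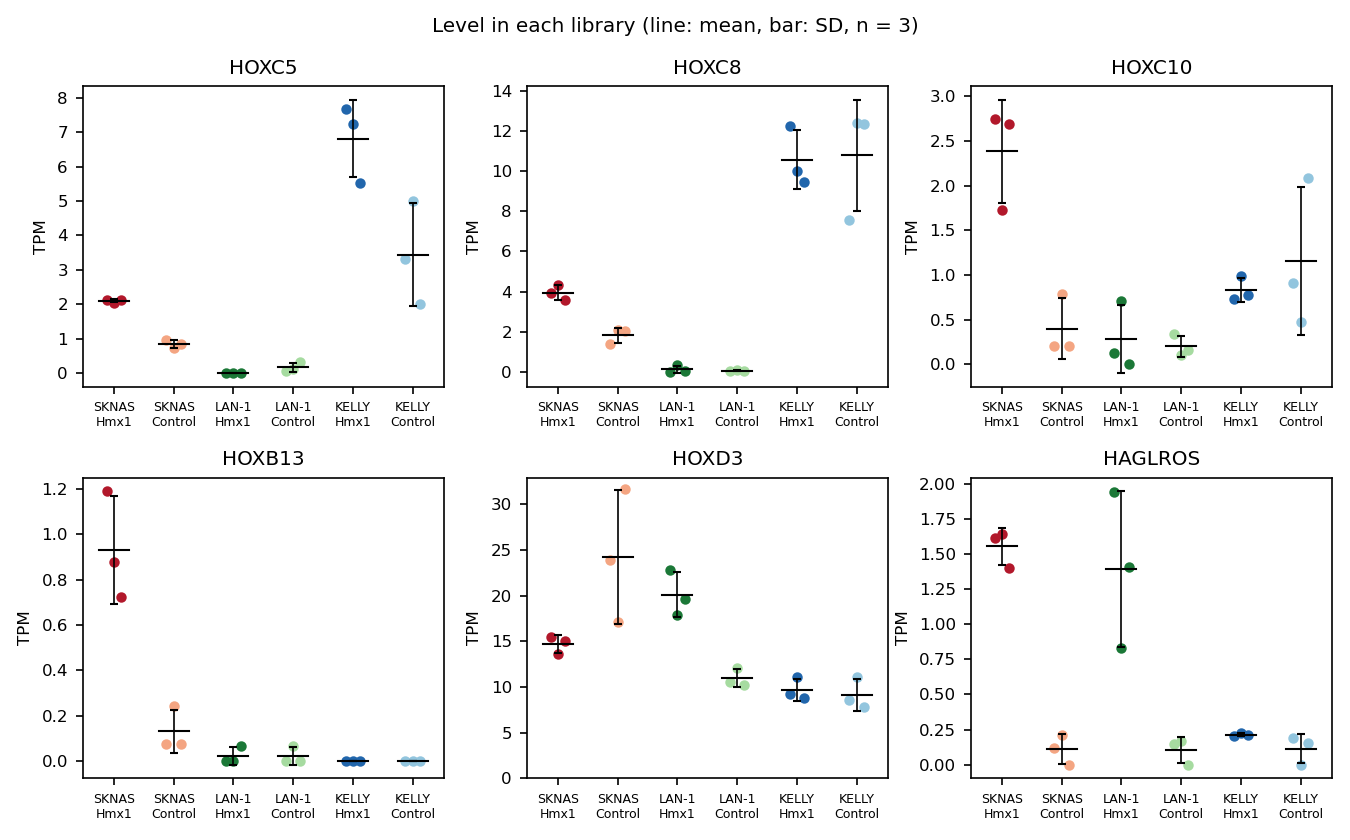
TPM in each library for HOXC5, HOXC8, HOXC10, HOXB13, HOXD3 and the noncoding gene HAGLROS, with the mean as a line and the SD as a bar (n = 3 per group), Hmx1 left of Control in each line. HOXC5, HOXC8, HOXC10 and HOXB13 stand higher in SKNAS Hmx1 than in SKNAS Control tumours, HOXD3 is lower in Hmx1 in SKNAS and higher in LAN-1, and HAGLROS is higher in Hmx1 in these 2 lines.

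Genes listed as markers of host cells differed in the same comparison. Whether their RNA came from host cells or from the SKNAS cells was not tested. Among 5 leukocyte markers it was PTPRC, the common leukocyte antigen, that was higher, with 187, 285 and 219.9 TPM in SKNAS Hmx1 tumours, against 102.1, 75.7 and 97.9 TPM in SKNAS Control tumours, and 0 in all LAN-1 and KELLY libraries (log2 difference 1.31 in SKNAS, limma adjusted p = 3.30e-05). CD14, of monocytes, was called lower (-0.62, adjusted p = 0.0277), CD68 was not called, and CSF1R and LYZ were too low to be tested. PTPRC made up nearly all of the summed leukocyte level, which was 189 to 286 TPM in SKNAS Hmx1 and 77.3 to 105 TPM in SKNAS Control tumours. The summed level of 7 fibroblast markers was 802 to 895 TPM in Hmx1 and 1134 to 1334 TPM in Control tumours, and that of 5 endothelial markers was 6.05 to 8.85 TPM in Hmx1 and 3.55 to 4.70 TPM in Control tumours. Markers of the mesenchymal neuroblastoma state, 8 in all, summed to 477 to 520 TPM in SKNAS Hmx1 and 701 to 769 TPM in SKNAS Control tumours, and 2 of 7 tested were called lower. Of the markers tested, 2 of 7 fibroblast genes were called lower and 1 of 4 endothelial genes higher, beside 8.76% of all genes called. Of the fibroblast genes not called, COL1A1 (-0.70) and COL3A1 (-0.62) were below 0. DCN (0.57), PDGFRB (0.57) and COL1A2 (0.24) were above 0. With lists this short, nothing is read from these counts or from that of the mesenchymal markers. LYZ was at 0 in SKNAS Hmx1 tumours and PECAM1 in both SKNAS arms, and no fibroblast marker was at 0 in all libraries of either SKNAS arm. Their part in the HOX differences was not tested. In these bulk tumours, fewer cells of a type and less RNA per cell cannot be told apart. No source used here tells if reads of the mouse host were taken out.

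In LAN-1, 0 of 14 members were called by limma between Hmx1 and Control tumours, against 0.45% of all genes. An unadjusted p under 0.05 was found for 2 of 14. The share of all genes at that unadjusted threshold is not given, so nothing is read from this count. Libraries did not overlap for 2 members, against 15.8% of all genes: HOXC5 was 0 in all 3 Hmx1 tumours and 0.0642 to 0.311 TPM in Control tumours, and HOXD3 differed the other way. HOXD3 had 22.8, 17.9 and 19.6 TPM in LAN-1 Hmx1 tumours, against 10.6, 12.1 and 10.2 TPM in LAN-1 Control tumours. All Hmx1 libraries were above all Control libraries. The log2 difference was 0.81 (SE 0.20, limma adjusted p = 0.0956), and it was past the threshold with FPKM, median-ratio scaling and quantile normalization, with adjusted p from 0.0188 to 0.0271, and up to 0.315 over all 15 alternatives. HOXD3 held 34.6% ± 4.46 of HOXD TPM in LAN-1 Hmx1 and 18.9% ± 2.71 in LAN-1 Control tumours. HOXD4, whose span lies inside that of HOXD3, had 0.408 to 0.961 TPM in LAN-1 Hmx1 and 0.696 to 2.07 TPM in LAN-1 Control tumours, which overlapped, with a log2 difference of -0.58 (SE 0.44).

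In KELLY, 0 of 14 members were called by limma, against 0.0912% of all genes. An unadjusted p under 0.05 was found for 4. The share of all genes is not given for that threshold, which differs from the adjusted one, and nothing is read from the 4. Libraries did not overlap for 4 of the 14, against 6.67% of all genes, namely HOXC5, HOXC9 and HOXD9, higher in Hmx1, and HOXD10, lower. HOXC5 had 7.66, 7.25 and 5.54 TPM in KELLY Hmx1 tumours, against 3.30, 5.01 and 2.02 TPM in KELLY Control tumours. The log2 difference of 0.86 (SE 0.20) had a limma adjusted p of 0.180, and was called only without replicate 2 of KELLY Control, at 1.11 with adjusted p = 0.0122, against up to 1 in the other alternatives. HOXC9 had 20.3, 16.8 and 16.4 TPM in KELLY Hmx1 tumours, against 12.9, 13.01 and 14.2 TPM in KELLY Control tumours, a difference of 0.39 (SE 0.17). HOXD13 differed by 0.10 (SE 0.24) and HOXC4 by 0.11 (SE 0.28), and their arms overlapped. In a single-gene exact permutation test, 3 libraries against 3 cannot give a two-sided p below 0.1, and each non-overlapping gene named here was at that floor.

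**Figure D4:**
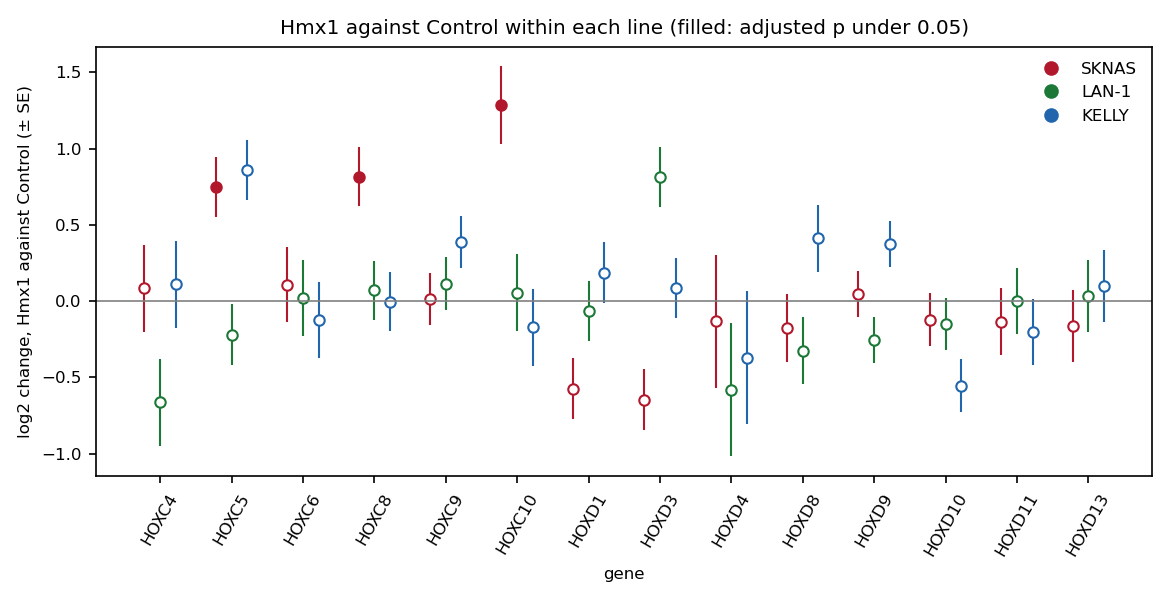
Log2 change of the 14 tested members in Hmx1 against Control tumours of each line, on the log2(TPM + 1) scale with SE bars, filled where the adjusted p was under 0.05. Only HOXC5, HOXC8 and HOXC10 in SKNAS are filled, and HOXD3 lies at -0.65 in SKNAS and 0.81 in LAN-1.

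The difference in the Hmx1 effect between lines was tested directly. SKNAS minus LAN-1 gave 1 of 14 members called, against 4.99% of all genes. It was HOXD3, at -1.46 (SE 0.28, limma adjusted p = 0.00350), and the call held in all 21 alternatives. In the same test HOXC5 was at 0.97 (adjusted p = 0.0576) and HOXC10 at 1.23 (adjusted p = 0.0580). SKNAS minus KELLY also gave 1 of 14, against 4.85% of all genes. This was HOXC10, at 1.46 (SE 0.36, limma adjusted p = 0.0228). KELLY Hmx1 tumours had 0.728, 0.987 and 0.777 TPM of HOXC10, and KELLY Control tumours had 0.912, 0.475 and 2.09 TPM, which overlapped, and the call held in 10 of 20 alternatives. It was lost on leaving out replicate 1 or 3 of SKNAS Hmx1, of SKNAS Control or of KELLY Hmx1, or replicate 3 of KELLY Control, with adjusted p up to 0.131 over all alternatives. LAN-1 minus KELLY gave 0 of 14, against 0.209% of all genes. An unadjusted p under 0.05 was found for 4 members, again without a share of all genes, and nothing is read from it. The 3 HOXC calls of SKNAS are not shown to be particular to SKNAS. HOXC10 passed the filter through SKNAS Hmx1, where it is high, so nothing is read from the count against KELLY that holds it. Both comparisons with SKNAS share its libraries.

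Long noncoding genes inside the clusters were low, and 4 of 18 passed the filter: HAGLR, HAGLROS, HOXD-AS2 and HOXC-AS1. HAGLROS, a noncoding gene of the anterior HOXD end, was higher in Hmx1 tumours of 2 lines. It had 1.62, 1.65 and 1.40 TPM in SKNAS Hmx1 tumours, against 0.118, 0.211 and 0 TPM in SKNAS Control tumours. In LAN-1 it had 1.94, 0.830 and 1.41 TPM in Hmx1 tumours, against 0.147, 0.167 and 0 TPM in Control tumours. In KELLY it had 0.206, 0.223 and 0.213 TPM in Hmx1 tumours, against 0.191, 0 and 0.154 TPM in Control tumours. The arms stood apart widely in SKNAS and LAN-1 and narrowly in KELLY. Log2 differences were 1.21 (SE 0.16, limma adjusted p = 3.72e-05) in SKNAS, 1.09 (SE 0.16, adjusted p = 0.00166) in LAN-1 and 0.13 (SE 0.16, adjusted p = 0.998) in KELLY. HAGLROS reached 1 TPM in 5 libraries, all of SKNAS Hmx1 or LAN-1 Hmx1, and so passed the filter through the groups where it is high. With no filter the adjusted p was 4.50e-05 in SKNAS and 0.00169 in LAN-1. The LAN-1 call was lost when the LAN-1 groups were fitted alone, with adjusted p = 0.154. The effect in SKNAS exceeded that in KELLY by 1.08 (SE 0.22, limma adjusted p = 0.00616), and the LAN-1 effect exceeded that in KELLY by 0.97 (SE 0.22, adjusted p = 0.108).

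In the tables HAGLROS lies wholly within the span of HAGLR, on the opposite strand, so the reads of the pair may not be told apart. HAGLR had 6.69 to 9.79 TPM in SKNAS Hmx1 and 4.84 to 6.89 TPM in SKNAS Control tumours, which overlapped, with a log2 difference of 0.39 (SE 0.21, limma adjusted p = 0.344). In LAN-1 its difference was -0.11 (SE 0.21). The RefSeq window of HAGLROS is shown because its gene was called in 2 lines, and its capitals mark the only match, an E-box just before the start.
HAGLROS (chr2:176177916-176178215, plus strand): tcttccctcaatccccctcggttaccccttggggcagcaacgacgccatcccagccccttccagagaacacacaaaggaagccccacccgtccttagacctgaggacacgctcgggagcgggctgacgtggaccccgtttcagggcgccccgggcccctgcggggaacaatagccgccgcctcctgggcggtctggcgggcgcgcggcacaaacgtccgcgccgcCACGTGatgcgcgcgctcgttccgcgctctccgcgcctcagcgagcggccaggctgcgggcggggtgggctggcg
Below the filter, 3 noncoding genes of HOXA, HOXB and HOXC were above 0 in all 3 SKNAS Hmx1 libraries and at 0 in each SKNAS Control library. HOTAIR, the antisense RNA of the posterior HOXC end, had 0.458, 0.217 and 0.506 TPM in SKNAS Hmx1 tumours and was at 0 in the other 15 libraries. HOXB-AS1 had 1.15, 0.504 and 1.04 TPM there and was also at 0 in the other 15. HOTAIRM1, in the HOXA cluster, had 0.199, 0.204 and 0.132 TPM there, 0.277 TPM in 1 KELLY Hmx1 library and 0 elsewhere. These levels were chosen for description after they were seen and were not tested. Over all genes, 24269 to 24901 were above 0 per SKNAS Hmx1 library and 22993 to 23795 per SKNAS Control library. Of the 18 noncoding genes, 7 were at 0 in all SKNAS Hmx1 and 13 in all SKNAS Control libraries. The share of all genes with such a pattern was not computed, so nothing is read from the count.

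Few partners and regulators of HOX proteins were called with Hmx1, beside 8.76% of all genes called in SKNAS, 0.45% in LAN-1 and 0.0912% in KELLY. With lists this short, a count of 0 or 1 is near those shares, and nothing is read from it. PBX, MEIS and PKNOX proteins are homeodomain cofactors that bind DNA with HOX proteins, and 0 of 8 tested were called by limma in any line. Genes flanking the clusters gave 0 of 9 in any line. Of 24 Polycomb genes tested, PHF19, which helps the complex onto chromatin, was the only one called in SKNAS, with 74.9, 77.2 and 84.2 TPM in Hmx1 tumours, against 122.8, 107.3 and 118.1 TPM in Control tumours (log2 difference -0.55, SE 0.14, adjusted p = 0.0140). None was called in LAN-1 or KELLY, and 0 of 15 trithorax and H3K27 demethylase genes were called in any line. Among early axial regulators, 2 of 7 tested were called higher in SKNAS Hmx1. CDX1, an activator of HOX genes in the mouse embryo, had 1.94, 2.19 and 1.85 TPM in SKNAS Hmx1 tumours, against 1.25, 1.47 and 0.955 TPM in SKNAS Control tumours (0.43, SE 0.12, adjusted p = 0.0255). RARB, a retinoic acid receptor, had 8.28, 6.08 and 6.53 TPM in SKNAS Hmx1 tumours, against 3.76, 3.75 and 3.11 TPM in SKNAS Control tumours (0.80, SE 0.23, adjusted p = 0.0392).

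In the fit above, most of the 8 cofactors tested were called between KELLY and each of the other lines, as were many of all genes. With a list this short, and counts that moved with the scaling, nothing particular to cofactors is read from them. Between SKNAS and LAN-1, 2 of 8 tested were higher in SKNAS in each arm and none was lower. Beside these stand 52% of all genes called in Control and 53.1% in Hmx1 tumours. Of the 8 tested, 7 were higher and 1 lower in SKNAS Control than in KELLY Control tumours, beside 65.7% of all genes called, and likewise in LAN-1 Control against KELLY Control, beside 51.8%. Their median log2 differences were 1.26 and 1.01, beside 0.54 and 0.34 over all genes. In Hmx1 tumours 6 were higher and 1 lower in SKNAS than in KELLY, beside 64.8% of all genes, and 5 higher and 1 lower in LAN-1 than in KELLY, beside 49.9%. No called cofactor changed sign under the 4 scalings, but the count of higher genes was lower under some of them. For LAN-1 Control against KELLY Control it was 5 with FPKM and 4 with each of the other 3 scalings, and for SKNAS Control against KELLY Control it was 6 with median-ratio and quantile scaling. In Hmx1 tumours it was 3 to 6, with 1 or 2 lower, for SKNAS against KELLY, and 3 or 4 for LAN-1 against KELLY. Against KELLY Control, the log2 differences above 0 included MEIS1 (1.59) and PBX3 (1.55) in SKNAS, and MEIS2 (1.65), MEIS1 (1.15) and PBX4 (1.08) in LAN-1. MEIS3 was the gene that was lower, at -1.13 in SKNAS and -0.81 in LAN-1. The summed cofactor level was 227 to 244 TPM in KELLY Hmx1 and 191 to 254 TPM in KELLY Control tumours, 268 to 384 TPM in LAN-1 Hmx1 and 331 to 387 TPM in LAN-1 Control tumours, and 304 to 393 TPM in SKNAS Hmx1 and 384 to 399 TPM in SKNAS Control tumours. HOXC-AS1, a noncoding gene of HOXC, was highest in KELLY, with 3.67 to 6.90 TPM in KELLY Hmx1 and 2.82 to 4.04 TPM in KELLY Control tumours, 0.394 to 1.58 TPM in SKNAS Hmx1 and 0 to 0.312 TPM in SKNAS Control tumours, and 0 in all LAN-1 libraries. Its difference between SKNAS Control and LAN-1 Control, 0.24, was not called (limma adjusted p = 0.380), although the summed HOXC level was higher in SKNAS. It lies on the strand opposite HOXC6 and HOXC9.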

How the data were processed

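RNA of 18 xenograft tumours went through a strand-preserving mRNA library kit and paired sequencing of 125 bp, per the labels' protocols. The submitters' processing notes list bcl2fastq, FastQC and STAR, and the builds GRCh38.p12 and GRCh37 without roles. For the quantification, the tool, annotation, strand setting and any filter on mouse reads are not stated there. Gene coordinates fit GRCh37, since the last gene on chromosome 1 ends at 249231242. The authors deposited TPM, FPKM and coverage signal per gene; TPM was used for the tests, FPKM as an alternative, and coverage was only inspected.

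TPM sums to 1000000 in each library and keeps no depth, so the sequencing depth and the counting error of each value are unknown. Symbols came from a table of Ensembl identifiers, which matched 39699 of 63677 identifiers and all 39 members. Samples were grouped by title. Values were transformed as log2(TPM + 1) and fitted with limma 3.58.1 in R 4.3.3 as 6 group means with a trended prior, for 18650 genes with at least 1 TPM in at least 3 libraries. P-values were adjusted by Benjamini-Hochberg over all of them. There were 12 comparisons: Hmx1 against Control in 3 lines, lines against each other in each arm, and differences of the Hmx1 effect between lines. A fold change on this scale understates the change of low genes. The fit was tested on simulated data, with changes placed only in genes of higher SKNAS Control level than HOXC5, HOXC8 and HOXC10. That test therefore does not cover calls of such low genes. Figures used Python 3.11.15 and matplotlib 3.10.9.

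Named with values are members called within a line, the 3 highest members per cluster, the 5 largest called line differences, and list genes called with Hmx1. HOXB13, the other HOXC and HOXD genes shown, and noncoding genes below the filter were added after their values were seen. The members and lists were chosen with earlier results of these data known. Alternatives were pseudocount 0.1, no filter, a filter of 5 TPM, FPKM, median-ratio and quantile scaling, TPM without mitochondrial genes, no trend, each comparison's groups alone, and each library left out. The same alternatives for HAGLROS, HOXD3, HOXC5 in KELLY and the called differences between lines were added after seeing the data. Sequence windows are RefSeq's, and no protein sequence was used here. Values of some single genes are not reported here.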

Additional observations from a re-analysis of the deposited data

Results flagged for a closer look

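The Hmx1 effect on HOXD3 had opposite signs in SKNAS and LAN-1, and the effect in SKNAS minus that in LAN-1 was -1.46 on the log2 scale (limma adjusted p = 0.00350). All SKNAS Hmx1 libraries lay below, and all LAN-1 Hmx1 libraries above, their Control libraries. The Hmx1 effect on HOXC10 was larger in SKNAS than in KELLY by 1.46 (adjusted p = 0.0228), and that on the noncoding HAGLROS by 1.08 (adjusted p = 0.00616). The HOXC10 call held in 10 of 20 alternatives, with adjusted p up to 0.131. HOXC10 and HAGLROS passed the filter through the groups where they are high. These 3 results were picked out because the test of the difference between lines passed its threshold.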

How the results depend on the processing

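Counts of called members in the 6 line comparisons stayed within 1.5 times their value under every alternative run. For SKNAS Hmx1 against Control, 3 members became 5 with no filter on low values, and 1 to 3 when a library was left out. It was 1, HOXC10, without replicate 2 of SKNAS Hmx1. For LAN-1, 0 became 1 with FPKM, median-ratio scaling and quantile normalization, and stayed 0 when a library was left out. For KELLY, 0 became 1 only without replicate 2 of KELLY Control, with a range of 0 to 1. For the SKNAS minus LAN-1 effect, 1 became 2 with pseudocount 0.1, no filter, median-ratio scaling or no mitochondrial genes, 4 in the groups alone, and 1 to 2 when a library was left out, with 2 without replicate 2 of SKNAS Control, SKNAS Hmx1 or LAN-1 Hmx1. For SKNAS minus KELLY, 1 became 0 with pseudocount 0.1, the 5 TPM filter, quantile normalization or the groups alone, 2 with no filter, FPKM, median-ratio scaling or no mitochondrial genes, and 0 to 2 when a library was left out, with 2 only without replicate 1 of KELLY Control. LAN-1 minus KELLY ranged from 0 to 1, with 1 only without replicate 2 of KELLY Control. The 5 TPM filter removed HOXC10 from the test, and for the other changes the cause was not tested. In SKNAS, HOXC10 kept its call in 14 of 14 alternatives, HOXC8 in 12 of 15 and HOXC5 in 9 of 15. The HOXD3 difference in KELLY, 0.09, changed sign to -0.038 without mitochondrial genes, and ran from -0.011 (without replicate 3 of KELLY Control) to 0.22 (without replicate 2 of KELLY Control) when a library was left out, with -0.0059 without replicate 2 of KELLY Hmx1. No paired analysis was possible because replicate numbers follow accession order and pair no libraries. Depth is unknown, which limits every value below 1 TPM.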
